A study of Mus musculus with 15 samples.

Results

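Wild type brown adipose tissue (BAT) at room temperature was compared with wild type BAT after 4 h of cold stress by the peaks of heat shock factor 1 (HSF1) in ChIP-seq, with 2 libraries in each group. These are 4 of the 10 HSF1 ChIP libraries and of the 15 samples in the series, which also covers 40 min of cold and a TXNIP knockout. The tissue of all 4 libraries was fixed with DSG (2 mM, 25 min) and then with formaldehyde (0.8%, 12 min), and a Cell Signaling antibody was used. The labels give neither strain nor age, and they do not say whether 2 libraries of a group came from different mice, so the spread between them may be technical. Peaks on chromosomes 1 to 19, X and Y were taken, a repeated interval was counted once, and peaks of the 4 lists sharing 1 bp or more were joined, which gave 1427 regions. The 802 regions called in both room temperature lists were followed to 4 h. A region was kept when both 4 h lists called it and lost when neither did. A lost region is one with no deposited peak at 4 h, and signal under the authors' threshold is not recorded in such a list.

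HSF1 is the transcription factor that drives chaperone genes when proteins misfold. It binds as a trimer to heat shock elements, which are inverted repeats of the motif GAA, and in resting cells HSP70 and HSP90 chaperones hold it back, so that its own targets feed back on it. BAT burns fuel for heat in the cold through the uncoupling protein UCP1. HSF1 peaks do not measure expression, so the markers of brown fat cannot be checked by their level here.

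Heat shock elements were found at the summits of both kept and lost regions. The stretches shown here come from 11 of the 17 regions whose summit lay in a promoter window with an exact element of 3 units. Elements were searched on both strands of RefSeq promoter windows (GRCm38.p6, from 250 bp before to 50 bp after a start). An element of 3 units was GAA, TTC and GAA in turn, or TTC, GAA and TTC, with any 2 bases (NN) between units. Each sequence is read 5′ to 3′ on the strand of its gene, and capitals mark the GAA and TTC units. The first 4 lie in kept regions, the next 2 in regions called by 1 of the 2 libraries at 4 h, and the last 5 in lost regions.
Hspd1 (chr1:55088051-55088079, minus strand): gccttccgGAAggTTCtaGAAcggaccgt
Hsph1 (chr5:149636280-149636308, minus strand): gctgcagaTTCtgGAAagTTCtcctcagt
Mettl23 (chr11:116843321-116843349, plus strand): aagtcgccTTCcaGAAgaTTCactcctca
Hnrnpa2b1 (chr6:51469863-51469891, minus strand): agtgggggGAAggTTCtaGAAaagcggcg
Nr1h2 (chr7:44554083-44554111, minus strand): aaacgaaaGAActTTCcgGAActtttttc
Bst2 (chr8:71537618-71537646, minus strand): gagttgaaTTCcaGAAgtTTCtcttgctt
Kctd18 (chr1:57970217-57970245, minus strand): cgggaaaaTTCagGAAcgTTCttggggcg
Aqp7 (chr4:41048353-41048381, minus strand): ctgttactTTCtgGAAacTTCtatgtaca
Slc29a1 (chr17:45593020-45593048, minus strand): gaagaaagGAAcaTTCtgGAActggaggt
Slco2b1 (chr7:99707016-99707044, minus strand): aagagactGAAcaTTCtgGAAtgtttgtc
Plscr4 (chr9:92457312-92457340, plus strand): ggaaaatgGAAaaTTCcaGAActccaccc

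The centre of the element was 5 bp from the summit at Hspd1, 4 bp at Hnrnpa2b1, 12 bp at Mettl23 and 47 bp at Hsph1. In the lost regions it was 19 bp away at Kctd18, 7 bp at Aqp7, the glycerol channel of fat cells, 11 bp at Slc29a1, a nucleoside transporter, 6 bp at Slco2b1, an organic anion transporter, and 32 bp at Plscr4, a lipid scramblase. Over all regions with the summit in a promoter window that holds an exact element, it was within 50 bp in 4 of 5 kept, 3 of 4 middle and 7 of 8 lost ones. The farthest were 161 bp at Dnaja1 (kept) and 122 bp at Aldh1a2 (lost). Reads of the 2 inducible HSP70 genes, Hspa1a and Hspa1b, cannot be assigned to 1 of these near-identical copies with certainty. Their promoters hold the same 29 bases around an element with 1 mismatch, shown in lower case inside the element.
Hspa1a (chr17:34972250-34972278, minus strand): ccagacgcGAAacTgCtgGAAgattcctg
Hspa1b (chr17:34959332-34959360, minus strand): ccagacgcGAAacTgCtgGAAgattcctg

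The lists were far shorter at 4 h. Room temperature replicates 1 and 2 held 919 and 1269 peaks, and the 4 h replicates held 123 and 351. Read depth is unknown, since the files hold no counts. The log2 difference in peak number was −2.38 (means 1094 ± 247 and 237 ± 161 peaks, SD, n = 2), and the exact two-sided permutation test gave p = 0.333, the smallest that 2 libraries against 2 allow. The median width of a peak was 481 and 505 bp at room temperature and 371 and 481 bp at 4 h. The fold enrichments and −log10 p values below are the authors' own, and are used for description and for the order of peaks in their own list.

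Most regions bound at room temperature had no peak at 4 h, and those that stayed were mostly the strongest. Of the 802 regions, 98 were kept (12.2%), 182 were called by 1 of the 2 libraries at 4 h (22.7%) and 522 were lost (65.1%). The middle class came almost entirely from the longer list, since replicate 2 alone called 180 of its 182 regions and replicate 1 alone 2. With replicate 2 as the sole 4 h library, 278 regions were kept, and with replicate 1 as the sole one, 100 were. With room temperature replicate 2 alone as the starting list, 951 regions were lost. When each list was shortened to its 123 strongest peaks, 57 regions were kept and 38 lost. List length therefore moves these counts, and how far it accounts for them was not tested.

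Kept regions were stronger and had wider peaks at room temperature than lost ones. Median folds in room temperature replicates 1 and 2 were 20.02 and 23.24 for kept regions, 9.77 and 10.9 for those called once at 4 h, and 6.91 and 7.43 for lost ones. Kept regions had folds of 7.26 and 13.7 at 4 h. The median width of the peaks in room temperature replicates 1 and 2 was 855 and 972.5 bp in kept regions and 461.5 and 555 bp in lost ones. The classes overlapped: the strongest lost region had folds of 37.2 and 46.5, and kept regions reached down to 1.44 and 1.35. These lowest folds belong to 1 of 5 kept regions with folds under 3 in both room temperature lists, taken up below. Outside those 5, kept folds reached down to 3.58 in room temperature replicate 1 and 3.91 in replicate 2.

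The outcome followed the order of the regions at room temperature, where a region's place was set by the worse of its 2 ranks by −log10 p. Among the first 25 regions, 24 were kept, 1 was called once at 4 h and 0 were lost. Among places 26 to 50, 16 were kept and 1 was lost. In places 51 to 100, 16 were kept and 11 lost, and in the 100 places after that the counts were 12 and 49. The first lost region stood at place 41, after 33 kept regions and 7 called once. Weak regions were not without exceptions, since 16 regions after place 400 were kept, the last at place 801. Those at places 621 and 756 had folds under 3 in both room temperature lists.

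**Figure D1:**
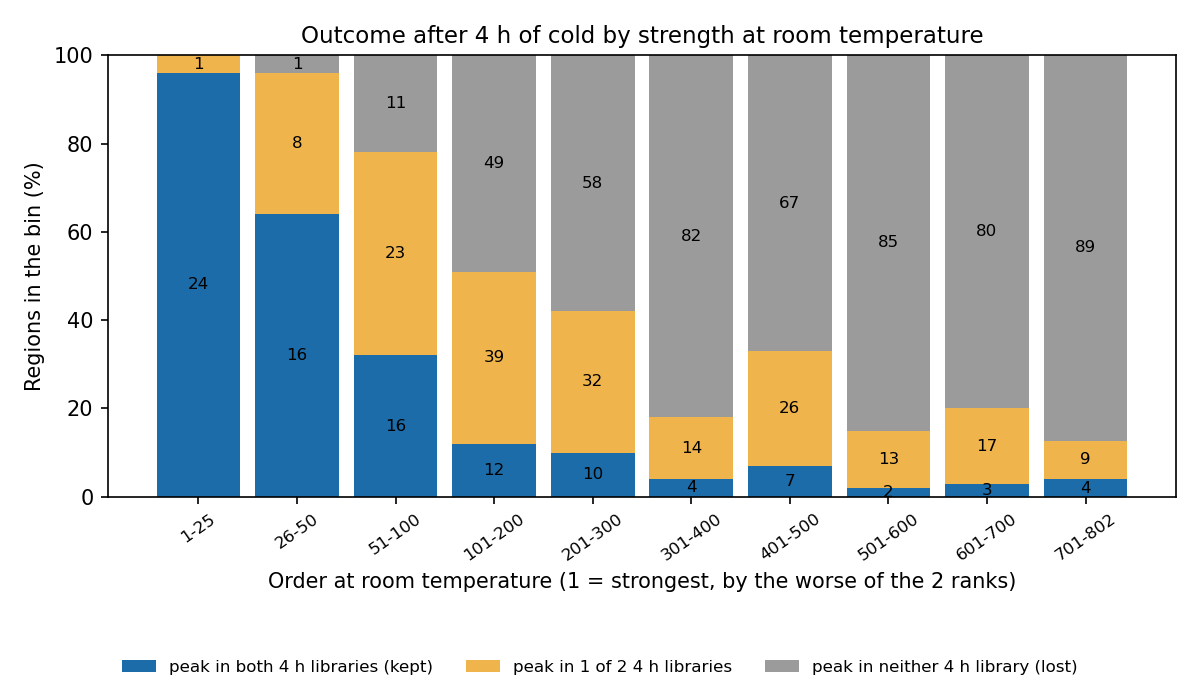
Outcome at 4 h of the 802 regions called in both room temperature lists, in bins of their order at room temperature (x axis, 1 is strongest). Bars give the percentage of the bin's regions and the numbers inside are counts: 24 of the first 25 regions were kept, against 4 of the last 102.

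Gene ends were more frequent among kept than among lost regions. The summit lay within 1000 bp of an end of a protein-coding gene in 47 of 98 kept regions (48.0%), in 36 of 182 of the middle class (19.8%) and in 136 of 522 lost ones (26.1%). The share among all 802 was 27.3%. The gap was smaller by distance to listed RefSeq starts, on the chromosomes that have them. Within 1000 bp of such a start lay 38 of 97 kept (39.2%), 39 of 172 middle (22.7%) and 153 of 512 lost regions (29.9%). A region away from gene ends can still lie at a listed start, as the one in Slc29a1 does. Without 4 h replicate 1 the shares were 29.9% for kept and 25.95% for lost regions. Regions near the ends of 2 neighbouring genes were kept in 10 of 40 cases, those at a single gene end in 37 of 179, those inside genes in 24 of 316, those up to 50 kb from a gene in 15 of 181, and those farther away in 12 of 86.

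Position and strength were not independent, so outcomes are also given within ranges of strength. In the first 50 places, regions at the ends of chaperone genes were kept in 17 of 21 cases, those at other gene ends in 15 of 18 and those away from gene ends in 8 of 11. In places 51 to 200 the counts were 2 of 10, 10 of 42 and 16 of 98, and 6 of the 10 chaperone regions were lost, beside 60 of all 150. After place 400, 0 of 87 regions at gene ends were kept, beside 16 of 315 away from them.

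Of 21887 protein-coding genes, 258 (1.18%) had a region of both room temperature lists within 1000 bp. Of these, 57 were kept (22.1%), 41 were called once at 4 h (15.9%) and 160 were lost (62.0%). The 6 lists of cytosolic and mitochondrial chaperone genes held 37 bound genes of 96, of which 21 were kept, 6 were called once and 10 were lost. The number lost was 16 without 4 h replicate 2, and 4 when each list was shortened to its 123 strongest peaks. Among the 221 bound genes outside these lists, 36 were kept, 35 were called once and 150 were lost. Several genes share a region, such as Hspd1 with Hspe1, so genes are not independent here.

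HSP70 chaperones bind exposed stretches of unfolded proteins, and 7 of the 9 bound genes of this list were kept. All 7 stood at places 5 to 19 of the room temperature order, and 24 of the first 25 regions of any kind were kept. Hspa8, the constitutive HSP70 (chromosome 9, summit 40801143, 133 bp from a gene end), had folds of 112 and 97.4 at room temperature and 26.4 and 55.0 at 4 h. Hspa1a (chromosome 17, summit 34972357) had folds of 81.3 and 96.1 at room temperature and 8.27 and 15.7 at 4 h, and its copy Hspa1b (summit 34959455) had 111 and 102, then 12.4 and 19.3. Both 4 h values were below both room temperature values at each of these genes, as they were at 66 of the 98 kept regions (67.3%). Hsph1, an HSP110 nucleotide exchange factor, had folds of 97.5 and 117, then 15.4 and 32.1, and St13, which links HSP70 to HSP90, had 126 and 118, then 44.6 and 78.9. Hspa4l, another member of the HSP110 group, was kept too. Hspa1l counts among the 7 through the region it shares with Hspa1a. The lost members were Hspbp1, an exchange factor (18.3 and 20.7 at room temperature), and Hspa4 (7.25 and 9.86).

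Within a list, the inducible HSP70 genes stood lower relative to Hspa8 at 4 h than at room temperature. The fold at Hspa1a divided by the fold at Hspa8 of the same list was 0.729 and 0.986 at room temperature and 0.313 and 0.286 at 4 h. For Hspa1b it was 0.991 and 1.04, then 0.470 and 0.351, and for Hsph1 it was 0.874 and 1.20, then 0.583 and 0.584. St13 went the other way, with ratios to Hspa8 of 1.13 and 1.21, then 1.69 and 1.44. These ratios show unequal change and not which of the peaks changed. The pairs named here and below were chosen after their values were seen. Over all 4753 pairs of kept regions, 3757 such ratios did not overlap between the groups (79.0%), so a ratio that does not overlap is common.

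HSP90 genes and their co-chaperones, which finish the folding of kinases and receptors, were kept at 6 of 9 bound genes. Those 6 stood at places 3 to 26, of which Chordc1 at 26 was the sole one past the first 25. Hsp90ab1, the constitutive HSP90 (chromosome 17, summit 45573897), had folds of 121 and 112, then 22.3 and 43.0, and Hsp90aa1, the inducible form (chromosome 12, summit 110696383), had 121 and 118, then 20.4 and 40.0. The 2 genes thus had similar folds in each list, and their ratio was 1.01 and 1.05 at room temperature and 0.916 and 0.929 at 4 h. Stip1, which carries clients from HSP70 to HSP90, had a ratio to Hsp90ab1 of 0.659 in both room temperature lists and of 0.428 and 0.462 at 4 h. Fkbp4, an immunophilin of receptor complexes, had 0.588 and 0.617, then 0.79 and 0.70. Ahsa2, an activator of the HSP90 ATPase, and Chordc1 were kept as well. Ptges3 (p23) and Ahsa1 were called at 4 h by replicate 2 alone, with folds of 8.57 and 9.11, after 38.3 and 35.04 for Ptges3 and 38.6 and 41.0 for Ahsa1 at room temperature. Ppid, a cyclophilin, was lost from 11.9 and 11.5.

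Among HSP40 genes, whose J domain stimulates HSP70, 5 were bound, and they split over all 3 outcomes. Dnaja1 (chromosome 4, summit 40722379, between the ends of Dnaja1 and Aptx) had folds of 123 and 102, then 23.4 and 35.3. Dnajb1, the classical partner of inducible HSP70, had 35.5 and 36.5, then 5.97 and 11.9. Its ratio to Dnaja1 overlapped between the groups, with 0.289 and 0.359, then 0.255 and 0.338. Dnaja4 was called at 4 h by replicate 2 alone (39.1 and 38.9 at room temperature, 10.4 at 4 h). Dnajb2 (15.1 and 12.0) and Dnajb4 (10.3 and 11.3) were lost.

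The small heat shock protein gene Hspb1 was kept (66.3 and 63.3, then 12.0 and 17.9). Bag3, which couples HSP70 and small heat shock proteins to autophagy, was called at 4 h by replicate 2 alone (16.0 and 27.7, then 8.21), and its partner Hspb8 was lost (6.28 and 10.7). Genes of TRiC, the ring that folds actin and tubulin, were bound at 8 of the 14 listed TRiC and prefoldin members and split over all 3 outcomes. Cct4 (42.0 and 42.8), Cct3 (21.2 and 23.2) and Cct8 (18.4 and 19.1) were kept, Cct7 (57.0 and 57.2) and Tcp1 (13.6 and 18.3) were called once, and Cct5 (16.0 and 15.03), Cct6a (14.2 and 13.4) and Cct2 (7.39 and 7.61) were lost. Cct7 was the strongest of the 8 at room temperature, at place 20 of all regions, and 4 h replicate 1 did not call it.

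In the mitochondrial list, the shared region of Hspd1 and Hspe1, which encode HSP60 and its lid HSP10 (chromosome 1, summit 55088060), had the highest fold in each of the 4 lists: 194 and 193, then 53.6 and 117. Hspa9, the mitochondrial HSP70, was lost from 18.1 and 11.5. Among endoplasmic reticulum chaperones, Serpinh1, the collagen chaperone, was kept (51.7 and 48.4, then 9.19 and 22.1). Hsp90b1 and Pdia3 were called by 4 h replicate 2 alone, with 7.85 and 8.57, and Canx was lost from 4.77 and 5.66.

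Kept genes of the ubiquitin list included Uspl1, Ubb, Ubqln1 and Zfand2a. Uspl1 (chromosome 5, summit 149184371), a SUMO protease gene, had folds of 155 and 155, then 25.7 and 62.1. Ubb, a polyubiquitin gene, had 47.9 and 46.5, then 7.35 and 13.6. Ubqln1, a shuttle to the proteasome, had 57.7 and 57.6, then 9.42 and 25.3, and Zfand2a (AIRAP) had 46.5 and 50.98, then 7.58 and 13.9. These 4 stood within the first 28 places at room temperature, a range in which most regions of any kind were kept.

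**Figure D2:**
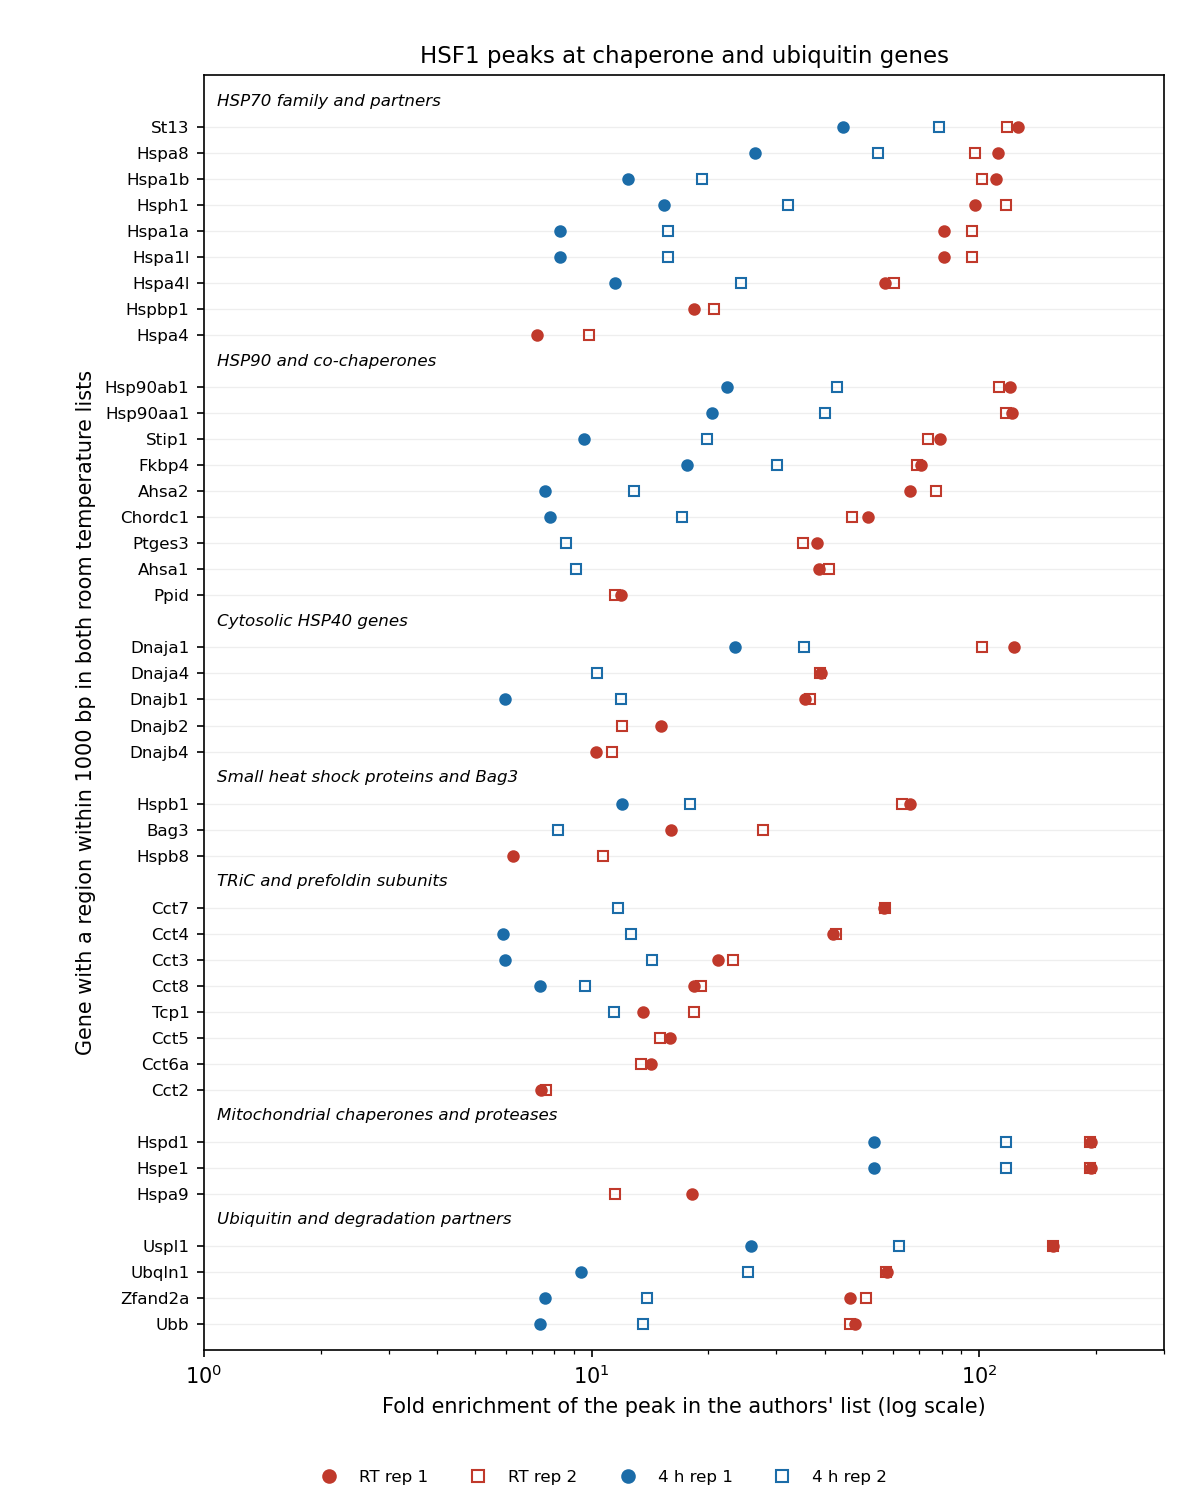
Fold enrichment in each of the 4 lists (x axis, log scale) for chaperone genes and the 4 named genes of the ubiquitin list with a region within 1000 bp in both room temperature lists. Red is room temperature, blue is 4 h, circles are replicate 1 and squares replicate 2, and a missing blue symbol means no peak in that list, as at Hspa4, Cct2 and Hspa9.

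Outside proteostasis, 6 of 290 listed genes were bound near an end (2.07%, beside 1.18% of all genes). All 6 were lost, beside 62.0% of all bound genes. Jun, the AP-1 subunit, was the sole bound gene of 28 early genes, and was lost from 24.1 and 16.2. In the list of TXNIP, glucose and insulin genes, 3 of 25 were bound and lost: Castor1, an arginine sensor of mTORC1 (15.3 and 19.1), Pik3r2, a regulatory subunit of PI3 kinase (4.92 and 5.05), and Arrdc4, an alpha-arrestin related to TXNIP (4.77 and 3.91). Pik3r2 and Arrdc4 stood at places 697 and 793 of the order, in ranges where 80 of 100 and 89 of 102 regions were lost. The ribosomal gene Rplp2 (6.20 and 4.30) and the endothelial receptor gene Tie1 (12.6 and 13.7) were lost as well. The lists of HSF genes, proteasome subunits, thermogenic genes, adipocyte genes, clock genes, respiratory chain subunits, muscle and leukocyte markers and olfactory receptors had 0 bound genes near an end in both room temperature lists.

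Lost regions at gene ends were led by Kctd18, with folds of 37.2 and 46.5 (chromosome 1, summit 57970212). Swt1, near the end of which Trmt1l also lies, followed with 21.2 and 24.2, then Hspbp1, Castor1 and Jun. Fxr1, an RNA-binding protein gene, was lost from 14.1 and 17.2, Eif5, a translation initiation factor gene, from 12.4 and 13.3, Hikeshi, whose product carries HSP70 into the nucleus, from 12.6 and 13.1, and Ubr2, a ubiquitin ligase gene, from 11.1 and 12.5. Mpdz, Zfp526 and Gm20346 had folds between 11.6 and 15.5. Away from gene ends, lost regions were led by those in Ssh1, a cofilin phosphatase gene (28.1 and 31.2), near Cecr2 (26.6 and 27.8), beyond 50 kb from Rpl14 (23.8 and 21.5), in P4ha1 (19.1 and 32.2) and in Sparc, a matrix protein gene (23.6 and 21.1). Kctd18 stood at place 41 and Ssh1 at place 55 of all 802, so both lay in a range where other regions were kept.

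Kept regions did not hold their order among themselves. When the 98 were ranked by fold within each list, 28 ranked higher in both 4 h lists than in either room temperature list (28.6%), 38 ranked lower in both (38.8%) and 32 overlapped. A region at the head of the room temperature order could hold or lose places but hardly gain them. Of the 28 that ranked higher, 20 lay away from gene ends, and of the 38 that ranked lower, 26 lay at gene ends. Of the 19 kept regions at chaperone gene ends, 3 ranked higher and 10 lower (52.6%), beside 5 and 16 of 28 at other gene ends (57.1% lower). Between lists, Pearson's r of log2 folds over the 98 regions was 0.98 within room temperature, 0.92 within 4 h and 0.77 to 0.83 across the groups, as a description over regions that share their libraries.

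The largest gains in rank were at regions away from gene ends. A region inside Dusp16, 4097 bp from a gene end, had folds of 4.05 and 5.86 at room temperature and 6.89 and 14.6 at 4 h, and went from ranks 92 and 91.5 to 56.5 and 42.5. Dusp16 and Dusp6 encode phosphatases of MAP kinases. A region 3125 bp outside Dusp6 (chromosome 10, summit 99270614) had 15.2 and 23.3, then 12.4 and 27.8, and went from ranks 57 and 48 to 14.5 and 13. Its summit lay 285 bp from a listed start of Gm34921, so away from gene ends does not mean away from every listed start. Regions in Cilk1 (18.8 and 16.2, then 11.9 and 22.5), 90346 bp from Fam110c (10.0 and 11.1, then 8.96 and 14.995) and 2638 bp from Trafd1 (17.1 and 19.5, then 12.0 and 20.9) completed the 5. A region inside the clock gene Per2 (chromosome 1, summit 91436424) also ranked higher, at 8 and 8.5 after 28 and 25, with folds of 43.8 and 45.6, then 22.3 and 35.3. Of all kept regions, 6 (6.12%) had both 4 h folds above both room temperature folds, the Dusp16 region among them. These 6 also included regions with folds under 3 in both room temperature lists, which are taken up below.

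The largest losses of rank were at Ahsa2 (66.5 and 77.3, then 7.58 and 12.9), Cct4 (42.0 and 42.8, then 5.91 and 12.6), Naa16, a subunit gene of an N-terminal acetyltransferase (35.8 and 40.8, then 6.43 and 10.0), P4ha1, a collagen prolyl hydroxylase gene (36.0 and 44.2, then 5.45 and 14.2), and 12348 bp from Shf (32.1 and 27.6, then 5.62 and 10.4). All of these but the Shf region lay at gene ends. Hspa1a went from rank 11 in both room temperature lists to ranks 37 and 40, while Hspa8 went from 8 and 10 to 4 and 5.

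**Figure D3:**
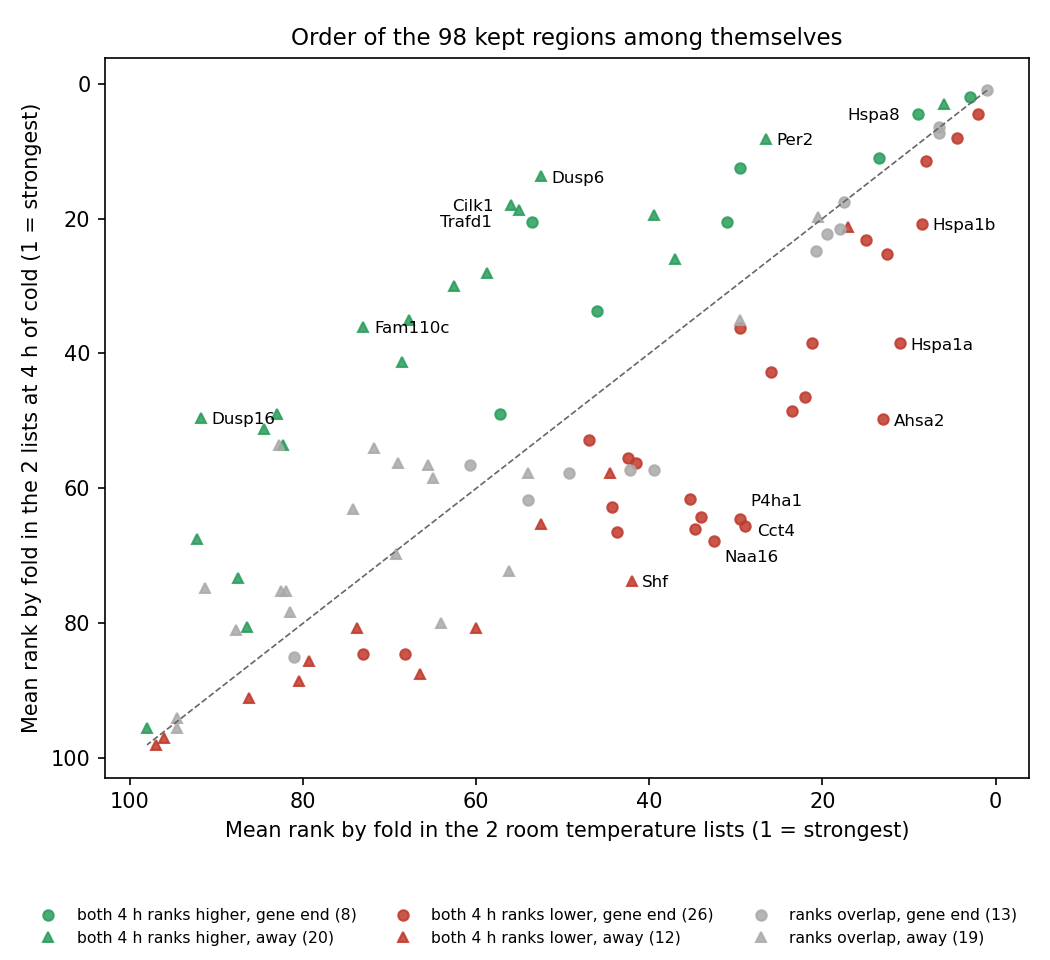
Mean rank by fold of each of the 98 kept regions among themselves, at room temperature (x axis) and at 4 h (y axis), 1 being the strongest. Green marks both 4 h ranks higher (28 regions), red both lower (38) and grey overlap (32); circles lie at gene ends and triangles away from them, and triangles make up 20 of the 28 green points.

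Regions in or near listed genes but over 1000 bp from a gene end had mixed outcomes: of 32, 8 were kept, 9 were called once and 15 were lost. Those named here were chosen after their values were seen. A region in Mgll, a monoacylglycerol lipase gene (8.82 and 7.61, then 6.66 and 6.78), and the region in Insr, the insulin receptor gene (6.20 and 7.03, then 5.07 and 9.85), were kept. The other region in Mgll (6.44 and 8.01) was called by 4 h replicate 2 alone (6.39). A region 10998 bp from Pparg, the adipocyte nuclear receptor gene (10.5 and 12.9, then 8.93 in replicate 2), and the region inside Ppargc1a (5.96 and 7.61, then 4.30) were called once at 4 h. Regions in Lipe, the hormone-sensitive lipase gene (9.77 and 10.9), in Prdm16, a regulator of brown fat identity (6.91 and 8.98 at the stronger of 2 regions), and 6630 bp from Txnip (6.59 and 6.90) were lost. The regions named here had folds below 13 at room temperature, and both outcomes occurred at like folds.

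Kept and lost regions could lie side by side. Joining room temperature summits within 20 kb (20000 bp) gave 748 loci, of which 45 held 2 or more regions and 12 held both a kept and a lost one. The kept region had the higher fold in both room temperature lists in 10 of these 12, and came first in the order, which is by −log10 p, in all 12. At P4ha1 the region at the gene end was kept (36.0 and 44.2) and one inside the gene, 11913 bp from its end, was lost (19.1 and 32.2). In Per2 the lost neighbour had folds of 10.97 and 10.74. Beside Hspa1a and Hspa1b, the region at the end of Lsm2 was lost (5.58 and 6.05), and near Hsp90ab1 the region in Slc29a1, whose element is printed above, was lost (6.82 and 10.6).

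Summits of kept regions stayed in place. Their peaks were joined by overlap, which limits in advance how far the summit of a kept region could move. The median distance between the summits of a kept region was 18 bp between the room temperature lists, 22 bp between the 4 h lists, and 21 and 17 bp between same-numbered lists of the groups. At least 93.9% lay within 100 bp in each of these pairs. Peaks were narrower at 4 h, with medians over kept regions of 370.5 and 627 bp, below both room temperature medians.

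Heat shock elements were more frequent near bound genes than in promoters at large, and more frequent at kept than at lost regions by each of the searches in windows that hold a summit. An exact element of 3 units was found for 5 of 18 kept regions with the summit in such a window (27.8%). It was found for 4 of 15 of the middle class (26.7%) and 8 of 68 lost regions (11.8%), beside 0.603% of all 32851 promoter windows. A region was counted once if any window over its summit held the element, while the share of all promoters counts single windows, so the units differ. With up to 1 mismatch the shares were 77.8%, 73.3% and 51.5%, beside 7.22%. For an element of 2 units (TTCNNGAA or GAANNTTC, which overlaps the longer element) they were 66.7%, 66.7% and 55.9%, beside 15.1%. With 18 and 15 regions in the first classes, these shares are coarse, and they were not tested. Kept regions were also stronger than lost ones at room temperature, and the shares were not split by strength. Over the listed promoters of genes near a region the exact element was found in 6 of 45 kept genes (13.3%), 3 of 33 of the middle class (9.09%) and 9 of 139 lost genes (6.47%), beside 0.595% of all 17492 genes with a listed promoter. For the 2-unit element the order of the middle class and the lost genes was the other way, with 24.2% and 28.8%.

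**Figure D4:**
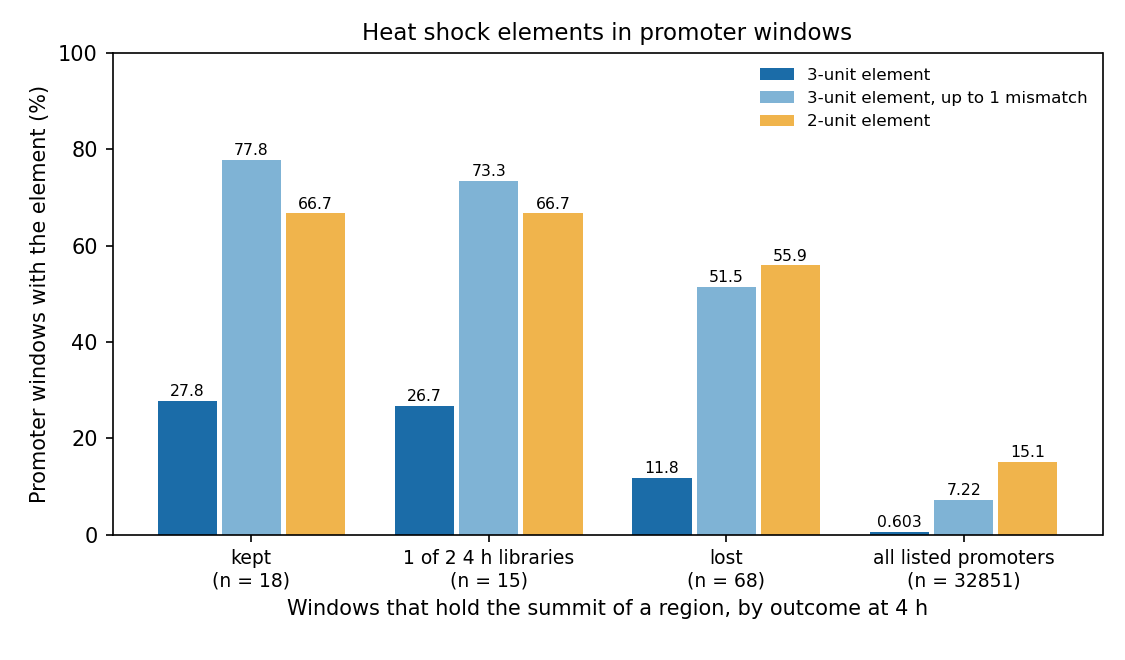
Percentage with a heat shock element (y axis), for kept, middle-class and lost regions whose summit lies in a RefSeq promoter window and for all listed promoter windows (x axis). The axis labels speak of windows, but the kept, middle-class and lost groups count regions. The exact 3-unit element was found for 27.8% of the 18 kept and 11.8% of the 68 lost regions, beside 0.603% of all windows.

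At 40 min of cold, in the first pair of wild type libraries, most of the regions without a peak at 4 h had one. Both of those libraries called 97 of the 98 kept regions, 181 of the 182 of the middle class and 480 of the 522 lost ones (92.0%), and 517 of the lost regions were called by at least 1. Those lists were not made comparable in depth to the 4 h lists.

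Regions gained at 4 h were few. Of the 44 regions with no room temperature peak, both 4 h lists called 3 (6.82%), none of them near a gene end. They lay inside Lamc1, a laminin gene (chromosome 1, summit 153257137, folds 5.05 and 8.93 at 4 h), 11950 bp from Tbl1xr1, a corepressor subunit gene (chromosome 3, summit 22064303, 9.19 and 15.7), and inside Nisch (chromosome 14, summit 31200842, 6.89 and 10.4). All 3 were called in both 40 min libraries of the first pair. Of all 44 regions with no room temperature peak, both of these libraries called 22 (50%) and at least 1 called 34 (77.3%). The count was 35 without 4 h replicate 1, 12 without 4 h replicate 2, 9 without room temperature replicate 2 and 4 without room temperature replicate 1. In lists of 123 peaks it was 22.

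The 5 regions with folds under 3 in both room temperature lists were kept, and none lay near a gene end. No filter for repeats or known artefact regions was applied here. The first, on chromosome 2 (summit 98666871, 1035199 bp from Lrrc4c), stood at place 14 of the order with folds of only 2.60 and 2.05, then 3.01 and 4.91. Without these 5 regions 93 were kept, of which 50.5% were near a gene end.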

How the data were processed

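The authors deposited 1 list of narrow peaks per ChIP library. The submitters' processing notes name MACS2 2.2.7.1, BWA 0.7.17, Trim Galore 0.6.0, deepTools 3.4.3 and SAMtools, with GRCm38.p6 (mm10) as build. How reads were filtered and which input was used is not given in the sources used here. Each deposited list gives a fold enrichment (a linear ratio), the −log10 p-value and −log10 q-value, an integer score (not used here) and the summit. No counts are given, so depth is unknown.

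Peaks were merged and compared with Python 3.11.15, numpy 2.4.6 and scipy 1.17.1, and the merging was tested on simulated data. Genes were 21887 protein-coding genes from RefSeq without strand, so distance is to either end of a gene. Of 423 symbols in 21 gene lists, 422 matched. Sequences are from RefSeq promoters, and a search around every summit was not run without a genome.

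The regions, gene lists and naming rule were chosen with earlier results of these data known. Named were listed genes near a region called in both libraries of a group, the 10 first kept and 15 first lost regions at gene ends, the 5 of each away from them, every gained region, and the 5 largest gains and losses of rank; others are named as chosen later. Genes with printed promoter sequences were picked for an exact element. Peak numbers were compared by an exact permutation test, and shares were not tested. Positions are 1-based. The values of 1 listed gene are not reported here.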

Additional observations from a re-analysis of the deposited data

How the results depend on the processing

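Of 123 alternative values, 97 stayed near the reported one, 26 moved and 0 reversed. Near means within 1.5 times for a count, inside the Wilson 95% interval of the reported value for a share, and of the same sign for the log2 difference. With each list shortened to the 123 peaks of the shortest, 57 regions were kept (53.3%), 38 lost and 22 gained, 73.7% of kept and 47.4% of lost regions were near a gene end, and 4 chaperone genes were lost. Counting a region as kept with at least 1 of the 4 h libraries, a rule chosen after seeing the data, gave 280 kept (34.9%), 29.6% of them near a gene end. Gene ends within 5000 bp gave shares of 61.2% for kept and 41.6% for lost regions, and within 500 bp 19.5% for lost ones. With 1 mismatch, the element was in the promoters of 37.8% of kept and 25.9% of lost genes, and the 2-unit element in 37.8% and 28.8%.

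Leaving out 1 library at a time gave 99 to 278 kept regions, 524 to 951 lost, 4 to 35 gained, 8.20% to 34.7% kept, 29.9% to 47.5% of kept regions near a gene end, 10 to 16 lost chaperone genes and log2 differences in peak number of −3.13 to −1.62. The highest numbers kept and gained came without 4 h replicate 1, and the highest number lost without room temperature replicate 1. With replicate numbers as a block the difference in peak number was −2.38 (exact sign-flip permutation p = 0.5, the smallest possible). Deviations of same-numbered libraries over kept regions had a correlation of 0.0195. This value cannot show whether they share an animal or a day, and the labels do not say.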

Other observations

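4 h replicate 1 stood apart from the other 3 lists at Mlxipl, which encodes the glucose-responsive factor ChREBP and was named after its values were seen. On chromosome 5, 4 h replicate 1 had 4 peaks inside this gene, with folds of 14.0, 8.73, 14.0 and 28.5, the last in a peak of 2486 bp. The highest was the fifth of its list by fold (place 5). Both room temperature lists and 4 h replicate 2 had 0 peaks in the gene. Replicate 1 of the first 40 min pair had 2 peaks there, 1 of which overlapped these regions with a fold of 3.38, and replicate 2 had 0. In Mlxipl, 3 and 5 peaks were called in the second pair of wild type libraries from 40 min (highest folds 21.1 and 19.9) and 5 and 6 in the TXNIP knockout libraries (11.6 and 13.04), at other positions of the gene. These 4 regions were among the 9 called by 4 h replicate 1 alone, and the other 5 had folds from 1.42 to 7.12. The 32 regions called by 4 h replicate 2 alone had folds from 3.93 to 13.6. Of the 44 regions without a room temperature peak, 0 lay near a gene end. The first Mlxipl region, with a fold of 14.0, lay 17151 bp from a gene end but 150 bp from a listed start of Mlxipl. The cause of the Mlxipl peaks was not tested.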
